A study of Homo sapiens with 40 samples.

Results

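The comparison was of differentiated HepaRG cells exposed to PCB 126 at 10 nM with HepaRG cells given the solvent control. It took in the 5 libraries labelled PCB_10nM and the 5 labelled Control, which are 10 of the 40 libraries of the series, and libraries were chosen by these labels alone. HepaRG (HPR 116) is a commercial human hepatic line whose differentiated cultures hold hepatocyte-like cells and primitive biliary-like cells side by side, so each library holds RNA of more than 1 cell type. Both groups were kept from day 8 to day 14 in Williams' E medium with 2% FBS and 1% DMSO, and differed in the addition of PCB 126 or of its solvent alone. Directional libraries were prepared after removal of ribosomal RNA and reported as FPKM, fragment numbers corrected for transcript length and for the total mapped in a library, here summed per gene. Nothing in the labels says that the 5 libraries of a group came from separate cultures, so p-values measure only the spread between these libraries, which may be technical.

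PCB 126 is a dioxin-like polychlorinated biphenyl and a ligand of the aryl hydrocarbon receptor (AhR). In the liver the ligand-bound AhR enters the nucleus, pairs with ARNT and binds short DNA motifs with the core GCGTG, and it is best known for inducing the CYP1 monooxygenases. AHRR and TIPARP, which are themselves AhR targets, restrain the receptor.

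At 10 nM, 14 genes rose and 6 fell among the 9755 tested (limma on log2(FPKM + 1), Benjamini-Hochberg adjusted p under 0.05), which was 0.144% and 0.0615% of the genes. The rising genes were CYP1A1, CYP1A2, CYP1B1, CYP1B1-AS1, ALDH1A3, ALDH3A1, TIPARP, SLC37A2, STC2, SERPINB2, SCG5, MB21D2, CYB561A3 and TAT. The falling genes were IGFL1, KRT14, PRKG2, CYP4F22, COL3A1 and DEFB1. Over all genes the median log2 fold change was -0.21, and dividing each library by the 75th percentile of its gene FPKM brought this median to -0.08. The unscaled median depended on single libraries, at -0.06 without 10 nM replicate 3 and -0.36 without control replicate 5, and the scaled median was 0.01 without 10 nM replicate 5. After that scaling 46 genes rose (0.472%) and 23 fell (0.236%), and these 69 included all 20 of the genes called without scaling.

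**Figure D1:**
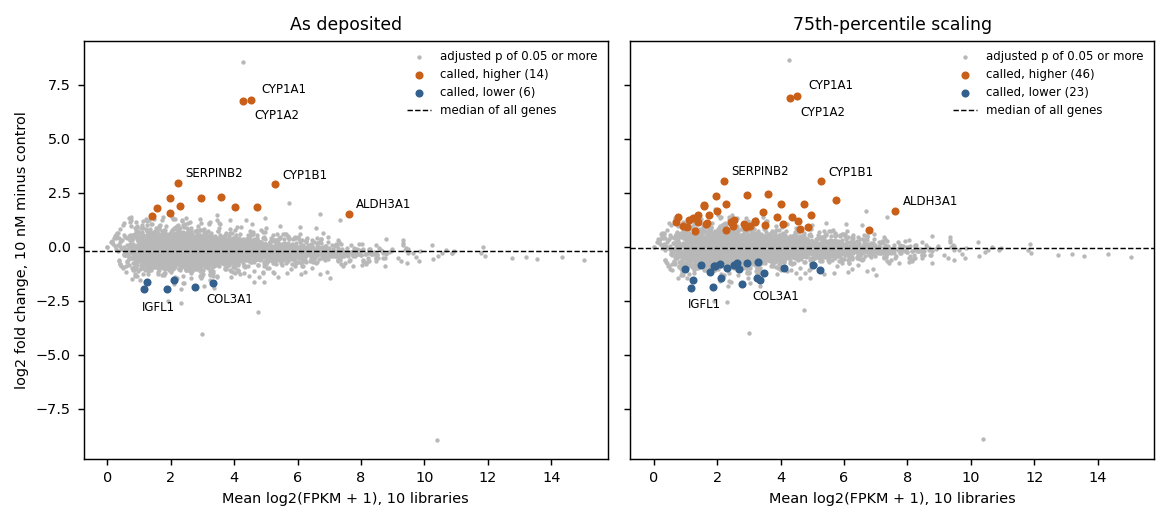
Log2 fold change of 10 nM over control against the mean log2(FPKM + 1) of the 10 libraries for 9755 genes, as deposited (left) and after 75th-percentile scaling (right). Orange points are genes called higher and blue points genes called lower by limma, and the dashed line is the median of all genes, at -0.21 and -0.08. CYP1A1 and CYP1A2 lie far above the other called genes, and the uncalled points beyond them in both directions are the RN7SL1 and AL139099.5 entries.

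The libraries differed in their overall values. The FPKM of named genes summed to 229493 to 409905 in the control group and to 186215 to 373806 at 10 nM, and the 75th percentile ran from 3.15 to 5.05 and from 2.47 to 4.65 (2-sided exact permutation p = 0.222 and 0.5, n = 5 each). The lowest sum and the lowest 75th percentile were those of 10 nM replicate 3. FPKM carry no read counts, so no interval for counting error is given for any value.

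The enzymes that AhR is known to induce were the group that stood highest. Of 14 listed, 11 were tested, 5 rose without scaling and 7 after it, and none fell. Of all tested genes, 0.144% rose without scaling and 0.472% after it. The median log2 fold change of the 11 enzymes was 1.52 without scaling and 1.66 after it, where the medians of all genes were -0.21 and -0.08. The list was drawn up with results of these data known.

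CYP1A1, the monooxygenase that oxidises polycyclic and dioxin-like aromatic compounds, had FPKM of 7.69, 3.76, 0.175, 0 and 0 in the control libraries and 377, 349, 92.1, 228 and 292 at 10 nM. The lowest 10 nM library, replicate 3, was above the highest control library. The difference of log2(FPKM + 1), a scale that shrinks the change of low genes, was 6.80 (SE 0.91, adjusted p = 0.000411 by limma).

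CYP1A2, the hepatocyte form that metabolises caffeine and aromatic amines, had FPKM of 1.12, 1.73, 1.32, 0.497 and 0.246 in the controls and 335, 398, 78.2, 233 and 133 at 10 nM. Its groups did not overlap either, and the means were 0.982 ± 0.606 and 236 ± 134 (SD, n = 5 each), a ratio of 239.9. The log2 difference was 6.73 (SE 0.76, adjusted p = 3.27e-05 by limma).

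CYP1B1, the CYP1 enzyme that also hydroxylates oestrogens, started from a higher level. Its FPKM were 25.1, 15.4, 12.2, 11.6 and 7.47 in the controls and 158, 52.0, 38.2, 109 and 373 at 10 nM. Here the lowest 10 nM library was again above the highest control, but the SD at 10 nM was 136 beside a mean of 146. The log2 difference was 2.89 (SE 0.53, adjusted p = 0.00841 by limma). The CYP1B1 call was lost in an ordinary linear model (adjusted p = 0.115), without the filter (0.203) and with the most abundant transcript (0.054). Its antisense transcript CYP1B1-AS1 rose from 1.61 ± 0.729 to 9.16 ± 3.91 FPKM, and since the strand setting of the quantification is not given in the sources used here, reads of these overlapping genes may not have been told apart.

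Among the aldehyde dehydrogenases, ALDH1A3, which makes retinoic acid from retinal, had FPKM of 0.734, 1.11, 0.738, 0.406 and 0.189 in the controls and 6.24, 6.30, 2.03, 4.47 and 4.65 at 10 nM. Every 10 nM library was above every control library, and the log2 difference of 1.77 had an SE of 0.27 (adjusted p = 0.00127 by limma). ALDH3A1, which oxidises aromatic and lipid-derived aldehydes, was already abundant. It had FPKM of 136, 140, 160, 103 and 64.6 in the controls and 449, 312, 185, 423 and 365 at 10 nM, with a log2 difference of 1.52 (SE 0.28, adjusted p = 0.0091 by limma). The unscaled call of ALDH3A1 was lost when 10 nM replicate 1 was left out, and the difference was between 1.31 and 1.73 whichever library was left out. With the most abundant transcript in place of the sum, ALDH3A1 was not called (log2 difference 0.93, adjusted p = 0.763 by limma).

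The other enzymes of the list moved less or varied more. UGT1A3, a glucuronosyltransferase, rose after scaling only, from 1.35 ± 0.672 to 3.66 ± 1.31 FPKM (log2 difference 1.07, adjusted p = 0.00364 by limma). ABCG2, an efflux pump of the canalicular membrane, rose from 0.484 ± 0.362 to 2.29 ± 0.536 FPKM after scaling (log2 difference 1.24, adjusted p = 0.0357 by limma), a call that was kept without 1 of the 10 libraries, control replicate 4, and lost without each of the others. UGT1A1, which conjugates bilirubin, had 80.3, 101, 76.6, 44.4 and 28.0 FPKM in the controls and 338, 226, 77.1, 121 and 225 at 10 nM. Its adjusted p was 0.338 without scaling and 0.116 after it, although its scaled values did not overlap. UGT1A4, UGT1A6 and UGT1A9 had scaled log2 differences of 0.24, 0.08 and 0.56 with overlapping groups. The UGT1A genes share their last exons, so reads may have been split between them. NQO1, UGT1A10 and CYP2S1 varied too little to be tested, and NQO1 was at 2.58 ± 1.06 and 2.60 ± 0.993 FPKM.

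Of the 9 genes of the receptor pathway itself, 1 rose in either fit, beside 0.144% of all tested genes without scaling and 0.472% after it. The member that rose was TIPARP. This mono-ADP-ribosyltransferase had FPKM of 5.64, 5.84, 5.39, 3.75 and 2.30 in the controls and 51.3, 36.0, 7.85, 19.4 and 38.87 at 10 nM. All 10 nM values were higher, with replicate 3 nearest the controls, and the log2 difference was 2.32 (SE 0.42, adjusted p = 0.00841 by limma). The TIPARP call was lost in an ordinary linear model (adjusted p = 0.0942) and without the filter (0.177). AHR was at 64.1 ± 14.5 and 52.0 ± 17.1 FPKM (adjusted p = 0.865 by limma) and its partner ARNT at 6.01 ± 0.596 and 5.67 ± 1.74 (adjusted p = 0.88). The repressor AHRR was at 1.73 ± 0.418 and 2.23 ± 1.10 FPKM, with overlapping groups and an adjusted p of 0.865. The chaperone genes HSP90AA1, HSP90AB1 and PTGES3 were not called in either fit.

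**Figure D2:**
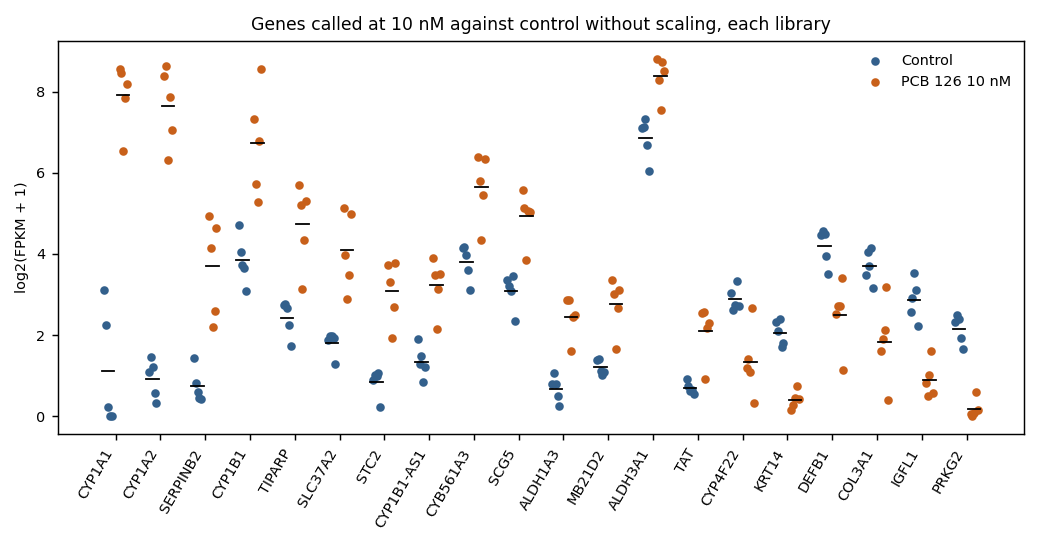
Each library's log2(FPKM + 1) for the 20 genes called without scaling, with 5 control libraries in blue, 5 libraries at 10 nM in orange and a bar at each group's mean. The groups did not overlap for 18 of the 20 genes, and CYP4F22 and COL3A1 had 1 library at 10 nM, replicate 4, within the control range.

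The other rising genes have varied roles. STC2, a secreted glycoprotein hormone induced by cellular stress, had FPKM of 0.852, 1.02, 0.989, 1.08 and 0.175 in the controls and 12.3, 8.88, 2.81, 5.49 and 12.7 at 10 nM. The ratio of the means was 10.2 and the log2 difference 2.25 (SE 0.34, adjusted p = 0.00127 by limma). SERPINB2, the plasminogen activator inhibitor type 2, went from 1.71, 0.760, 0.525, 0.362 and 0.353 FPKM to 29.6, 16.8, 3.58, 5.07 and 23.98, with replicates 3 and 4 well below the other 10 nM libraries. Its log2 difference was 2.96 (SE 0.45, adjusted p = 0.00127 by limma).

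SLC37A2, a sugar-phosphate transporter of the endoplasmic reticulum, had FPKM of 2.69, 2.95, 2.97, 2.82 and 1.46 in the controls and 34.0, 14.7, 6.36, 10.2 and 30.8 at 10 nM (log2 difference 2.27, adjusted p = 0.00127 by limma). With its most abundant transcript alone SLC37A2 was not called (2.05, adjusted p = 0.709). SCG5, a chaperone of prohormone convertase 2, rose from 7.83 ± 2.29 to 31.7 ± 11.9 FPKM, and MB21D2 from 1.32 ± 0.284 to 6.29 ± 2.69. The groups did not overlap for these 3 genes. CYB561A3, a lysosomal ascorbate-dependent ferrireductase, rose from 13.5 ± 3.95 to 55.6 ± 26.3 FPKM, and the call was lost without 10 nM replicate 1 and without 10 nM replicate 5 (log2 differences from 1.67 to 2.19 over the 10 omissions). The CYB561A3 call was also lost in an ordinary linear model (adjusted p = 0.0896). By limma it was lost without the filter (0.177) and with the most abundant transcript (0.206). TAT, the tyrosine aminotransferase of hepatocytes, rose from 0.628 ± 0.160 to 3.61 ± 1.64 FPKM. The unscaled call of TAT was lost when any library other than 10 nM replicate 3 was left out (log2 differences from 1.28 to 1.70), and its scaled call was kept in all 10 omissions.

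The RefSeq promoter windows of the rising genes, each running from 250 bases before to 50 bases after a transcription start on GRCh38.p14, were searched for the AhR core GCGTG on either strand (CACGC on the printed strand when it lies on the other). Windows matched by symbol for 10 of the 14 rising genes, and 6 of these 10 genes had a window with the core. Counted by window, the core was in 6 of the 14 windows of the rising genes (42.9%) and in 2 of the 3 windows of the falling genes (66.7%), beside 48.9% of the windows of tested genes and 36.5% of all 35093 windows. For these genes, called without scaling, the rising share was not above that of the tested genes. For the genes called after scaling, the core was in 23 of 41 rising windows (56.1%) and 8 of 18 falling windows (44.4%). These windows came from 30 of 46 rising and 13 of 23 falling genes, and the differences between shares were not tested. Windows with 2 or more made up 28.6% for the rising and 33.3% for the falling genes called without scaling, and 24.4% and 27.8% for those called after it. The share was 18.9% for the tested genes. No share by gene was computed for the tested genes, so 6 of 10 has no background. No window was matched for ALDH3A1, CYP1B1, SLC37A2 and TAT. CYP1A2, SCG5, CYB561A3 and SERPINB2 had none of these letters in their windows, which says nothing of more distant sites. Of the 14 rising genes, the window of CYP1A1 and those with 2 or more cores are printed 5′ to 3′ on the strand of the gene. The core is in capitals.
CYP1A1 (chr15:74725479-74725778, minus strand): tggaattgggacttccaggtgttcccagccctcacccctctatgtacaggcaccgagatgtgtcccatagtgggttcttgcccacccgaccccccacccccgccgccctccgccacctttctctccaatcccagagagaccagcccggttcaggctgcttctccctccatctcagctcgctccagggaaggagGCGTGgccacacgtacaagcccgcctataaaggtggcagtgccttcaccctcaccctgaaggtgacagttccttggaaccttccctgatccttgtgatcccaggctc
ALDH1A3 (chr15:100879581-100879880, plus strand): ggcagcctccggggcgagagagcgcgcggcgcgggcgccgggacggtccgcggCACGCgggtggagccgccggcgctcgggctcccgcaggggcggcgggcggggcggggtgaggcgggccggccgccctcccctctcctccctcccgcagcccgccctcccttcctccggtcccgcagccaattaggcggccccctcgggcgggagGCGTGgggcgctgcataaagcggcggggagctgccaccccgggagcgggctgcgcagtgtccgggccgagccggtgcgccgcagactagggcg
TIPARP (chr3:156674340-156674639, plus strand): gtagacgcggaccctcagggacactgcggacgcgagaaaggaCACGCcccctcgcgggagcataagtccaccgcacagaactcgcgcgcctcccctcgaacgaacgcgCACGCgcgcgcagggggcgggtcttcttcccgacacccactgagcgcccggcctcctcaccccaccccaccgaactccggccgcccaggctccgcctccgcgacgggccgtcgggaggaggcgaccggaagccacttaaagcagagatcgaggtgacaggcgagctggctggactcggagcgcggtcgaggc
MB21D2 (chr3:192917807-192918106, minus strand): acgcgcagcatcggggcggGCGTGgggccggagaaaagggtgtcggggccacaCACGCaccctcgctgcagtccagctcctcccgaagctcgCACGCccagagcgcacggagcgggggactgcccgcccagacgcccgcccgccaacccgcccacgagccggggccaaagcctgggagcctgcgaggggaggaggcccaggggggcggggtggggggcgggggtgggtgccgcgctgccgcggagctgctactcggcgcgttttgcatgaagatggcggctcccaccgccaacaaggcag
STC2 (chr5:173328365-173328664, minus strand): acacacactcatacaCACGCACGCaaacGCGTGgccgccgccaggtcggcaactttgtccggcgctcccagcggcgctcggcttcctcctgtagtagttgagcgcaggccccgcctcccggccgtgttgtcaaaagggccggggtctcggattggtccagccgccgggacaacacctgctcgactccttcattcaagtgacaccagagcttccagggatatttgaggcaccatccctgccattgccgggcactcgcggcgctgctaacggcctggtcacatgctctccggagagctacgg
In CYP1A1 the core began 57 bases before the start. ALDH1A3 held a core 43 bases and another 197 bases before its start, and TIPARP held its 2 in 1 of its 3 windows. MB21D2 and STC2 held 3 each, and 2 of those of STC2 overlap by a base. A match is a description of the sequence and does not show binding.

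The 6 falling genes had mean FPKM of 3.25 to 17.9 in the controls. IGFL1, a secreted IGF-like protein, had FPKM of 4.90, 6.55, 10.5, 7.64 and 3.66 in the controls and 0.760, 0.405, 1.01, 2.02 and 0.491 at 10 nM, without overlap. Its log2 difference was -1.97 (SE 0.32, adjusted p = 0.00274 by limma). KRT14, a keratin of basal epithelial cells, had 3.98, 3.27, 4.28, 2.26 and 2.47 FPKM in the controls and 0.117, 0.214, 0.372, 0.681 and 0.339 at 10 nM (log2 difference -1.65, adjusted p = 0.00738 by limma). PRKG2, a cGMP-dependent protein kinase, had 3.99, 4.66, 4.25, 2.78 and 2.18 FPKM in the controls, and at 10 nM it was between 0.00964 and 0.117 in 4 libraries and at 0.513 in replicate 4. Its log2 difference was -1.98 (SE 0.36, adjusted p = 0.00841 by limma), which became -0.80 (adjusted p = 0.285) when the unnamed assembled transcripts of the locus were added.

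CYP4F22, the fatty acid omega-hydroxylase of skin ceramide synthesis, had 7.17, 5.15, 5.72, 9.15 and 5.57 FPKM in the controls and 1.29, 1.65, 1.13, 5.37 and 0.248 at 10 nM. COL3A1, the fibrillar collagen type III chain, had 10.1, 15.4, 12.1, 16.7 and 7.99 FPKM and 2.06, 2.72, 3.33, 8.06 and 0.312. DEFB1, the constitutive beta-defensin of epithelia, had 21, 22.7, 21.4, 14.4 and 10.3 FPKM and 4.77, 5.59, 5.59, 9.60 and 1.19. In these 3 genes replicate 4 was the highest 10 nM library and replicate 5 the lowest, and the log2 differences were -1.55, -1.87 and -1.69 (adjusted p = 0.0232 each by limma). Their unscaled calls were lost in 7, 6 and 5 of the 10 omissions of 1 library. The CYP4F22 call was lost without any library but control replicates 2 and 5 and 10 nM replicate 4 (log2 differences from -1.89 to -1.30). That of COL3A1 was lost without control replicates 2, 3 and 4 and 10 nM replicates 1, 2 and 5 (-2.20 to -1.51), and that of DEFB1 without control replicates 1, 2 and 3 and 10 nM replicates 1 and 5 (-1.91 to -1.35). Without the 5 libraries with the most multiply aligned read pairs, which include control replicate 5 and 10 nM replicates 3 and 5, IGFL1 was the one of the 6 that was still called. The others then had adjusted p values of 0.107 (PRKG2), 0.0683 (KRT14), 0.138 (COL3A1), 0.207 (CYP4F22) and 0.0598 (DEFB1) by limma.

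Of the 9755 genes, 26 (0.267%) had all 5 libraries at 10 nM above all 5 controls without scaling and 24 (0.246%) had them below. After scaling these were 120 genes (1.23%) and 92 genes (0.943%). Of the 69 genes called after scaling, 64 had no overlap.

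The scaling added 49 genes to the calls. Among the rising ones, UGCG, the ceramide glucosyltransferase that starts glycosphingolipid synthesis, had FPKM of 25.7, 25.8, 18.2, 17.5 and 10.8 in the controls and 73.8, 56.7, 23.7, 51.5 and 48.6 at 10 nM. The overlap came from replicate 3, and after scaling there was none, with a log2 difference of 1.45 (SE 0.21, adjusted p = 0.00137 by limma). The EGFR ligands AREG and EREG rose from 1.25 ± 0.338 to 3.55 ± 1.49 and from 1.12 ± 0.393 to 4.71 ± 1.77 FPKM, with scaled log2 differences of 1.05 and 1.46 (adjusted p = 0.0025 and 0.00771 by limma). Their receptors EGFR, ERBB2 and ERBB3 had scaled log2 differences of 0.02, -0.11 and -0.09 and were not called. The other tested ligands of the list, TGFA, EGF and NRG1, had scaled log2 differences of 0.23, -0.29 and -0.16 and were not called either. Of the 11 tested members of the list, 2 rose after scaling, beside 0.472% of all tested genes.

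Further rising genes by the smallest p were TRIM15, DEPTOR, HHLA3, MMP2, PLEKHF1 and the unnamed-clone gene AL158839.1. DEPTOR, an inhibitor of the mTOR kinase, rose from 16.1 ± 5.40 to 35.4 ± 12.8 FPKM (scaled log2 difference 1.20, adjusted p = 0.0054 by limma). MMP2, the gelatinase A, rose from 7.63 ± 1.92 to 15.5 ± 6.11 (0.99, adjusted p = 0.00772), and TRIM15 from 4.25 ± 1.03 to 9.44 ± 3.30 (1.07, adjusted p = 0.0021). These calls, and those of UGCG, AREG and EREG, were kept after scaling when any 1 library was left out.

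Of the 22 genes listed for Wnt signalling, 8 were tested, and 2 rose and 1 fell after scaling. Of all tested genes, 0.472% rose and 0.236% fell after scaling. The scaled median of the list was -0.03 beside -0.08 for all genes. DKK1, a secreted inhibitor on the list that blocks the co-receptor LRP6, had FPKM of 20.3, 21.7, 18.0, 15.9 and 10.0 in the controls and 6.03, 7.62, 4.50, 9.80 and 3.34 at 10 nM, without overlap (scaled log2 difference -1.23, SE 0.21, adjusted p = 0.0055 by limma). SFRP2, which binds Wnt proteins and stood in the matrix list, fell from 8.55 ± 1.65 to 3.56 ± 1.74 (-1.02, adjusted p = 0.0252), a call kept without 10 nM replicates 3 and 4 or control replicate 1 and lost without each of the others. NKD2, an intracellular Wnt antagonist that was not on the Wnt list, rose from 0.511 ± 0.250 to 3.03 ± 1.92 (1.33, adjusted p = 0.00946 by limma). Its call was kept in all 10 omissions. The receptor FZD7 rose from 0.967 ± 0.263 to 2.19 ± 0.881 and the co-receptor LRP5 from 18.6 ± 4.59 to 32.2 ± 11.9 FPKM (scaled log2 differences 0.72 and 0.82, adjusted p = 0.0295 and 0.0132 by limma). The FZD7 call was kept without 10 nM replicate 3 or 4 and lost in the other 8 omissions, and that of LRP5 was lost without 10 nM replicate 1.

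The metabolic regulators PPARGC1A and PFKFB3 fell as well. PPARGC1A, a coactivator of mitochondrial and gluconeogenic genes, went from 6.5 ± 2.36 to 2.55 ± 1.23 FPKM (scaled log2 difference -0.98, adjusted p = 0.0298 by limma), and PFKFB3, a glycolytic regulator, from 25.2 ± 6.54 to 11.3 ± 4.13 (-0.997, adjusted p = 0.0252). Both calls were lost without control replicates 1, 2, 3 and 5 and 10 nM replicates 1 and 2, and that of PPARGC1A also without 10 nM replicate 5. SLC2A1, the glucose transporter GLUT1, rose from 9.25 ± 3.93 to 24.2 ± 11.7 (1.38, adjusted p = 0.0111) and was kept in all 10. Others that fell were the BMP target ID1, from 59.3 ± 19.9 to 25.2 ± 9.14 FPKM (-1.07, adjusted p = 0.0163), the cornified-envelope protein PPL, from 45.8 ± 9.08 to 23.2 ± 8.43 (-0.86, adjusted p = 0.0132), and the cGMP-dependent kinase PRKG1, from 4.60 ± 1.37 to 1.82 ± 0.890 (-0.89, adjusted p = 0.0273). The call of PPL was kept in all 10 omissions, that of ID1 was lost without control replicate 1 and 10 nM replicates 2 and 5, and that of PRKG1 was kept only without control replicate 5 or 10 nM replicates 3 and 4. PPL was not called, with or without scaling, when the 5 libraries with the most multiply aligned read pairs were left out.

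Some hepatic gene lists held calls and others held none. Of 17 hepatic transporters tested, 2 rose after scaling (ABCG2 and SLC2A1), beside 0.472% of all tested genes. Of 21 urea cycle, gluconeogenesis and amino acid genes tested, 1 rose in both fits (TAT), beside 0.144% of all tested genes without scaling. No gene of the other hepatic CYP enzymes (20 tested), conjugation enzymes (22), nuclear receptors and hepatocyte transcription factors (19), secreted hepatocyte proteins (28), apolipoproteins (9), complement and coagulation factors (34), bile acid genes (14), lipogenic genes (31) or cholesterol synthesis genes (24) was called in either fit. Of these 195 genes, pooled here because their lists held no call, 24 (12.3%) had an unadjusted limma p under 0.05 without scaling and 27 (13.8%) after it, beside 4.85% and 7.44% of all tested genes. Since 0.205% and 0.707% of all tested genes were called, nothing is read from the absence of calls. The scaled medians of these pooled lists ran from -0.40 in the secreted hepatocyte proteins to 0.05 in the nuclear receptors. CYP2B6, a target of the constitutive androstane receptor, was at 1.85 ± 0.983 and 6.67 ± 3.80 FPKM with a scaled log2 difference of 1.34 and an adjusted p of 0.2. CYP7A1, the rate-limiting enzyme of bile acid synthesis, was at 1.26 ± 0.340 and 2.62 ± 1.21 FPKM (0.70, adjusted p = 0.582), and its scaled values did not overlap. In the list of secreted proteins 25 of 28 tested members had a scaled log2 difference below 0, in the histone list 34 of 37, in the ribosomal proteins 42 of 46 and in the cell-cycle genes 25 of 29, without a call in these lists, while 68.2% of all tested genes were below 0.

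**Figure D3:**
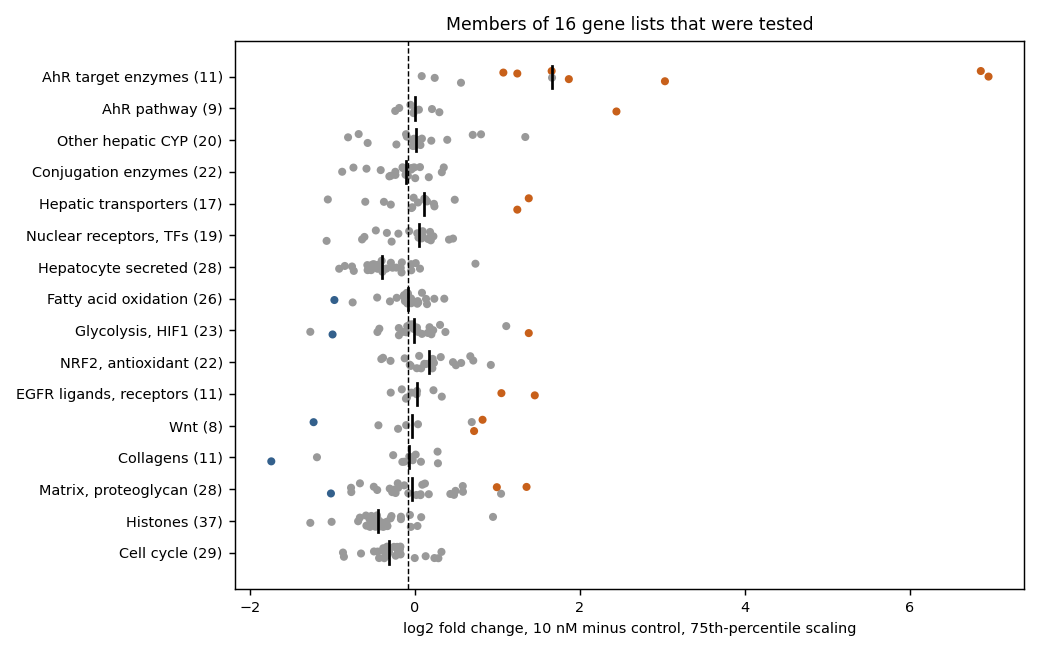
Log2 fold change after 75th-percentile scaling of every tested member of 16 gene lists, with the number tested in brackets. Orange and blue points passed the test as higher or lower, a black bar marks each list's median, and the dashed line is the median of all genes at -0.08. AhR target enzymes had a median of 1.66, and the other lists had medians between -0.45 and 0.17.

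Outside these lists, 1 of 26 tested genes of fatty acid oxidation fell after scaling (PPARGC1A) and 1 of 21 of glycosylceramide metabolism rose (UGCG). Of 18 tested genes of cysteine metabolism 1 rose (CTH, the cystathionine gamma-lyase, from 3.30 ± 0.773 to 7.21 ± 3.12 FPKM). Of all tested genes, 0.472% rose and 0.236% fell after scaling. The CTH call was kept without control replicate 1 and 10 nM replicates 3 and 4 and lost without each of the others. IGFBP1, an insulin-regulated secreted binding protein of the liver, had 40.4, 25.8, 11.5, 28.6 and 31.4 FPKM in the controls and 185, 140, 24.3, 147 and 149 at 10 nM. Replicate 3 lay among the controls, the scaled log2 difference was 2.16 (SE 0.49, adjusted p = 0.0449 by limma), and the call was kept only when 10 nM replicate 3 was left out. Among NRF2 targets (22 tested), unfolded-protein genes (21), TGF-beta and YAP targets (17), interferon-stimulated genes (20), cell-cycle genes (29) and metallothioneins (4), no member was called by limma in either fit, and 5 of these 113 genes (4.42%) had an unadjusted p under 0.05 without scaling and 14 (12.4%) after it, beside the 4.85% and 7.44% of all genes. No call was found either for amino acid transporters, tryptophan and kynurenine enzymes, immediate-early genes, histones, ribosomal proteins, mitochondrially encoded mRNAs or structural noncoding RNAs. Of these 156 tested genes 0 were called, and 18 (11.5%) had an unadjusted limma p under 0.05 without scaling and 25 (16.03%) after it. Both sets hold only lists without a call. With 0.205% of all tested genes called without scaling and 0.707% after it, nothing is read from these absences.

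In the matrix and cytokine lists, CEMIP, a hyaluronan-degrading protein, rose after scaling from 13.1 ± 4.17 to 34.2 ± 16.6 FPKM (log2 difference 1.36, adjusted p = 0.0111 by limma), a call kept in all 10 omissions. The CEMIP call was lost, with or without scaling, when the 5 libraries with the most multiply aligned read pairs were left out. CX3CL1, the chemokine fractalkine, fell from 12.4 ± 3.04 to 6.58 ± 2.13 FPKM (-0.71, adjusted p = 0.0252). The CX3CL1 call was kept without control replicate 1 and 10 nM replicates 3 and 4 and lost without each of the others.

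Cell-type markers were examined since the cultures are mixed. The 8 hepatocyte markers summed after scaling to 14689 to 20376 FPKM in the controls and to 9439 to 20481 at 10 nM, and the 8 lymphocyte markers were under 1 FPKM in each of the 10 libraries. The 12 biliary and progenitor markers, of which 5 were tested and none called, summed after scaling to 373 to 465 in the controls and to 178 to 348 at 10 nM, without overlap, and without scaling to 280 to 537 and 174 to 385, with overlap. KRT19, the most abundant of them, had 309, 378, 391, 249 and 189 FPKM in the controls and 245, 176, 110, 181 and 106 at 10 nM (scaled log2 difference -0.77, adjusted p = 0.229 by limma). The 12 fibroblast and stellate markers, which include COL3A1, summed after scaling to 30.1 to 43.7 and to 9.89 to 32.5. MUC1 in the biliary list (0.66) and COL1A1 in the fibroblast list (0.28) had scaled log2 differences above 0. The other tested members, 4 and 5 genes, were below 0. The fibroblast sum contains COL3A1, so the sum and the gene are not independent. The part of these cell types in the changes of KRT14, DEFB1, PPL and COL3A1 was not tested. In a bulk library, fewer cells of a type and less RNA per cell cannot be told apart.

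Several called genes lay side by side. With an interval of under 100 kb as the limit, 13 of the 69 called genes (18.8%) had another called gene near them, in 8 pairs found after the calls were known, while 1.14% of the other tested genes had a called gene that near. The pairs were CYP1A1 with CYP1A2, AREG with EREG, CYB561A3 with TMEM138, CYP1B1 with CYP1B1-AS1, DKK1 with PRKG1, and the 3 pairs among CTH, HHLA3 and AL158839.1 on chromosome 1. In each pair the genes changed in the same direction. CYP1A1 (GRCh38 chromosome 15, 74719542 to 74725610, minus strand) and CYP1A2 (74748844 to 74756202, plus strand) were 23234 bases apart. CYB561A3 and TMEM138, whose gene bodies overlap by 298 bases on opposite strands of chromosome 11, had scaled log2 differences of 1.99 and 1.16. Reads from the bases that CYB561A3 and TMEM138 share may not have been told apart. AL158839.1 lies within HHLA3 on the opposite strand, so its reads and those of HHLA3 may not have been told apart.

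The size of the response differed between the libraries at 10 nM. Over the 46 genes that rose after scaling, the median difference from the control mean, on the log2(scaled FPKM + 1) scale, was 1.68, 1.37, 0.80, 1.09 and 1.58 in replicates 1 to 5. Replicate 3 was the lowest 10 nM library for 34 of these 46 genes and for 45 of 46 without scaling. Over the 23 genes that fell, the medians were -1.09, -1.12, -0.88, -0.60 and -1.58, and replicate 4 was the highest library for 17 of the 23 and replicate 5 the lowest for 19. These genes were chosen by the same contrast, so the medians are a description.

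**Figure D4:**
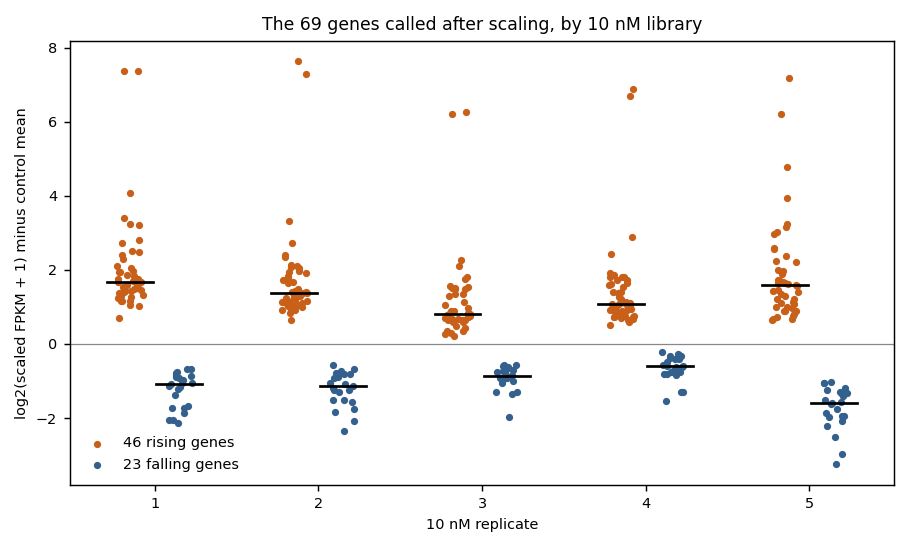
Log2(scaled FPKM + 1) of each 10 nM library minus the mean of the 5 control libraries, for the 46 rising (orange) and 23 falling (blue) genes called after scaling, with a bar at each median. The rising genes were lowest in replicate 3, with a median of 0.80, and the falling genes were nearest the controls in replicate 4, with a median of -0.60.

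The other 2 concentrations, 100 pM and 1 µM, share the 5 control libraries with 10 nM, so their changes against control are not independent of it. CYP1A1 was at 70.9, 36.4, 3.21, 1.09 and 319 FPKM at 100 pM and at 85.2, 251, 214, 389 and 234 at 1 µM. Its mean of 235 ± 108 at 1 µM stood beside 268 ± 113 at 10 nM, and the direct difference after scaling was -0.16 (SE 1.02, adjusted p = 0.967 by limma). STC2 was at 2.18 ± 1.31, 8.44 ± 4.30 and 17.4 ± 6.08 FPKM at 100 pM, 10 nM and 1 µM, with a scaled difference between 1 µM and 10 nM of 1.08 (SE 0.30, adjusted p = 0.351). COL3A1 was at 11.6 ± 5.60, 3.30 ± 2.89 and 0.576 ± 0.274 FPKM, with a difference of -1.22 (SE 0.37, adjusted p = 0.383). Of all 9755 genes, limma called, without scaling, 0 between 1 µM and 10 nM (324 at an unadjusted p under 0.05) and 0 between 10 nM and 100 pM (558 at an unadjusted p under 0.05).

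**Figure D5:**
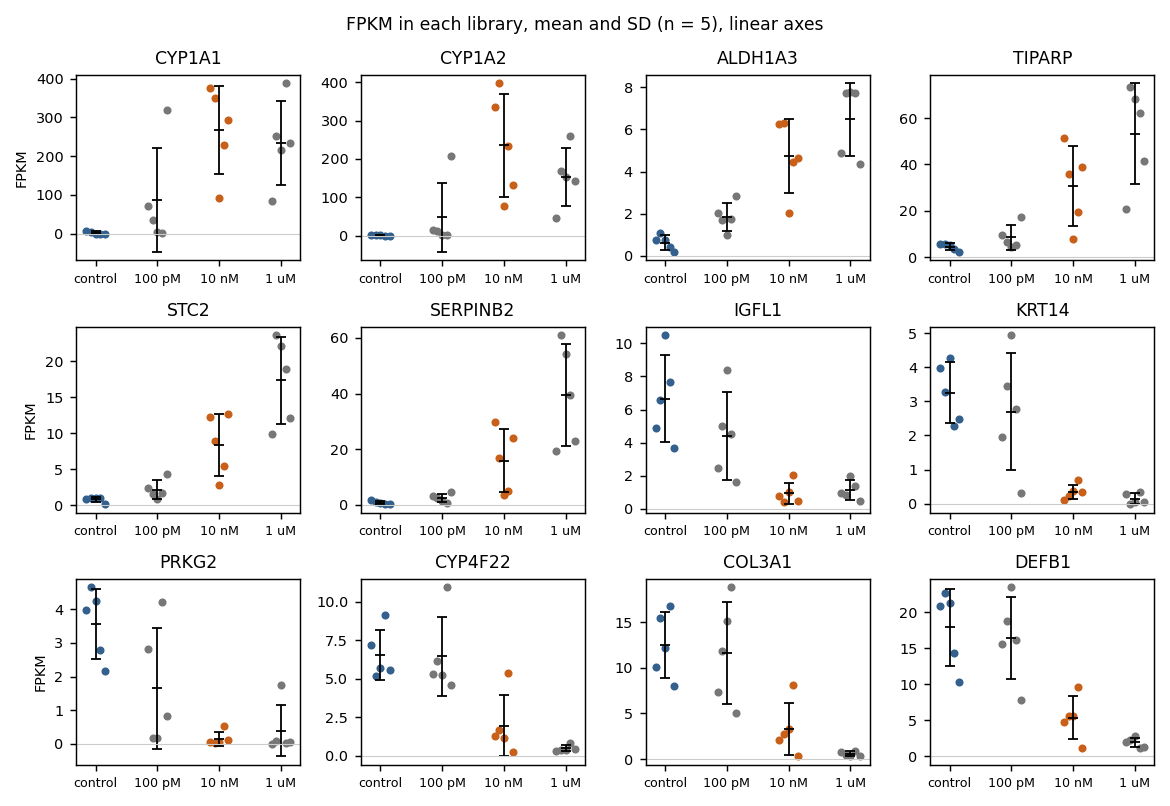
FPKM of 6 rising and 6 falling genes in each library at control, 100 pM, 10 nM and 1 µM on linear axes, with the mean and SD of 5 libraries as a bar. CYP1A1 and CYP1A2 had means at 10 nM of 268 and 236 and at 1 µM of 235 and 154, and 1 library at 100 pM had 319 and 208, while STC2 and SERPINB2 had higher means at 1 µM than at 10 nM.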

How the data were processed

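The authors used HISAT2 for alignment and StringTie for assembly and quantification, and deposited FPKM for 234960 transcripts per library on GRCh38, per the submitters' processing notes and the study's methods. Replicates were not pooled and the FPKM were not scaled between libraries. The deposited columns of 3 libraries hold 4 values below 0 and were recorded as a score for that reason only; with these values set to 0, they were used as FPKM like the others. Depth per library is not given in these values, so the 5 libraries per group limit the precision.

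FPKM were summed per gene name, and 35782 transcripts without a gene name were left out. Genes with a variance of FPKM above 1 over the 20 PCB 126 libraries (9755 of 56568 gene names) were tested with limma 3.58.1 in R 4.3.3 on log2(FPKM + 1), with all 4 groups in 1 fit, no covariates and Benjamini-Hochberg adjustment at 0.05. The fit was repeated on the same genes after each library was divided by the 75th percentile of its gene FPKM. The fit was tested on simulated data. Library measures were compared by 2-sided exact permutation over 252 splits, where the smallest possible p is 0.00794. No 2 libraries held identical values.

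The text names every gene called without scaling and every list member called in either fit. Further genes were drawn from the 10 rising and 10 falling genes with the smallest p called only after scaling. Others came from the first 3 tested members of each list. Not all genes of these last groups are named. The other AhR enzymes and pathway genes, TMEM138, RN7SL1, AL139099.5, EIF3CL, NUDT4 and the promoter windows were chosen with their values in view. The comparison, the 46 gene lists and the tests were chosen with earlier results of these data known. Replicates are numbered in accession order, as names only. Libraries of the 4 groups with the same replicate number have consecutive library numbers in their titles. What these runs of numbers stand for is not given in the labels. Alternatives were other scalings, pseudocounts, filters, models and gene sums, a replicate block, and leaving out libraries. Python 3.11.15, numpy 2.4.6, pandas 2.3.3 and matplotlib 3.10.9 were used for the other steps. The glyphosate table was not used here. Some items, and the count of calls between 1 µM and 10 nM after scaling, are not reported here.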

Additional observations from a re-analysis of the deposited data

Results flagged for a closer look

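Of 92 sets of 5 libraries screened, 4 had 1 library far from the other 4 by Dixon's criterion, about as many as the 1 in 20 that chance gives. They were the PPL level of control replicate 1 (33.6 scaled FPKM, the lowest control), the PRKG2 level of 10 nM replicate 4 (0.473 scaled FPKM, the highest at 10 nM), the 75th percentile of gene FPKM in 10 nM replicate 3 (2.47, the lowest), and the share of mitochondrially encoded mRNAs in control replicate 5 (0.122% of gene FPKM, the lowest control).

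Assembled transcripts without a gene name, which the comparisons left out, carried signal at 2 of the induced genes. The 2 at the CYP1A1 locus summed to 0.258 FPKM on average in the controls and to 46.9 at 10 nM, with 36.3, 39.7, 23.8, 119 and 15.3 in the 5 libraries. The 2 at the CYP1B1 locus summed to 0.166 and 47.0 FPKM, with 53.0, 158, 12.01, 3.06 and 8.58. Replicate 4 had the most of the unnamed CYP1A1 signal and the least of the unnamed CYP1B1 signal.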

How the results depend on the processing

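The number of genes called depended on the processing more than the leading genes did. The 20 calls without scaling became 69 with 75th-percentile scaling, 184 with quantile normalization, 121 with total scaling, 12 in an ordinary linear model, 113 in that model with a library-size term, 239 with array weights, 37 with a replicate block, 32 with unnamed transcripts of a locus added, and 56 without the 5 libraries with the most multiply aligned pairs; the cause was not tested. Higher and lower calls were 14 and 6 without scaling, 46 and 23 with 75th-percentile scaling, 117 and 67 with quantile normalization, 101 and 20 with total scaling, 73 and 40 with the library-size term, 54 and 2 without the 5 libraries, 10 and 2 in the ordinary linear model, 17 and 3 with a pseudocount of 0.1, 16 and 13 with 10 libraries in the fit, and 10 and 8 with the most abundant transcript. Lower calls outnumbered higher ones with array weights (114 higher and 125 lower), with the block (14 and 23), and without 10 nM replicate 4 (14 and 18, and 45 and 52 after scaling). Total scaling moved the median of all genes to 0.06. Leaving out 1 library gave 15 to 35 calls without scaling and 38 to 97 after it. The extremes came from 10 nM replicates 1 (15 and 38), 3 (35 and 72) and 4 (32 and 97). After scaling, there were 43, 44 and 44 calls without control replicates 2, 3 and 5, and 41 and 45 without 10 nM replicates 2 and 5. Of the 69 calls after scaling, 36 were kept whichever library was left out, and 32 were lost without 10 nM replicate 1. The PRKG2 call was lost by limma with the locus sum (-0.80, adjusted p = 0.285), with the most abundant transcript (-1.37, 0.129) and without the filter (0.170). It was also lost in the ordinary linear model (0.0872). The calls of TAT, COL3A1, CYP4F22 and DEFB1 were lost in the ordinary linear model too (adjusted p = 0.0942, 0.152, 0.0942 and 0.120). Without the filter their adjusted p values by limma were 0.177, 0.245, 0.177 and 0.205. CYP1A1 had an adjusted p of 0.0511 by limma with the 5 libraries left out and scaling. ALDH1A3, CYP1A2, CYP1B1-AS1, IGFL1, MB21D2, SCG5 and STC2 were called in all 38 settings. Of the 20 genes called without scaling, none changed direction in any setting. Deviations of control and 10 nM libraries with the same replicate number had correlations from -0.050 to 0.105, beside a mean of -0.014 for different numbers. Whether the replicate numbers pair the libraries was not tested, and the block with scaling gave 97 calls. Leaving out libraries took no library measure past the threshold. The number of libraries limits each of these tests.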

Other observations

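The largest differences that were not called came from 2 entries for the same RNA. RN7SL1, the 7SL RNA of the signal recognition particle, was listed at 33383, 11909 and 19189 FPKM in 10 nM replicates 1, 2 and 3 and at 0 in the other 7 libraries. AL139099.5, an entry that spans the same bases of chromosome 14 apart from its first (49586579 to 49586878, against 49586580 to 49586878), was at 0 in those 3 libraries and between 21909 and 36906 FPKM in the other 7. Neither entry was called (adjusted p = 0.327 and 0.324 after scaling by limma). EIF3CL, a near-identical copy of EIF3C, was between 22.7 and 47.5 FPKM in the controls and at or under 0.0180 in 4 of the 10 nM libraries, with 26.6 in replicate 5, and was not called either. NUDT4 was between 5.53 and 9.90 FPKM in the controls, at 7.17 in 10 nM replicate 1, and at or under 0.0937 in the other 4.

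Of the genes just short of the threshold after scaling, WNT7B, a Wnt ligand, was at 3.13 ± 1.01 and 5.31 ± 2.04 FPKM (log2 difference 0.69, adjusted p = 0.0575 by limma). LUM, a small leucine-rich proteoglycan, was at 50.2 ± 14.0 and 97.8 ± 35.5 FPKM (1.05, adjusted p = 0.0753), and KDR, an endothelial growth factor receptor, at 2.27 ± 1.63 and 0.655 ± 0.198 (-0.77, adjusted p = 0.0931). The scaled values of these 3 genes did not overlap between the groups.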
